A study of Mus musculus with 30 samples.

Results

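The genes described here were 36 genes of antioxidant defence and of the Nrf2 response, compared across 6 groups of mouse 3T3-L1 adipocyte cultures. They were chosen by function: the transcription factor Nrf2 (Nfe2l2) and its inhibitor Keap1, quinone and heme enzymes, enzymes of glutathione and thioredoxin, the NADPH-producing pentose phosphate pathway, glutathione S-transferases, peroxidases, peroxiredoxins, superoxide dismutases with catalase, and the ferritin subunits. A gene was kept if its counts summed to more than 14 over the 30 libraries, which all 36 listed genes did, among 20139 of the 54232 genes in the table. Gpx3, the secreted glutathione peroxidase, passed with 62 counts in all, and no level or change is drawn from it.

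3T3-L1 is a mouse preadipocyte line that was placed in adipogenic medium with insulin, dexamethasone, isobutylmethylxanthine and indomethacin, and stranded mRNA libraries were sequenced, 5 per group. Control cultures received adipogenic medium alone, IS cultures 100 µM indoxyl sulfate, a uremic toxin, and oxLDL cultures 50 µg/mL oxidized low-density lipoprotein. Each of these 3 conditions was also given with 0.7 µM pNaKtide, a cell-permeable peptide designed to block the Src signaling of the Na,K-ATPase (groups pNaKtide, IS + pNaKtide and oxLDL + pNaKtide). The study asked how far pNaKtide alters gene expression in cells under oxidant stress. The sources differ on the length of exposure, and none is given here. All cultures came from this single cell line, and nothing in the labels says that the replicates were separate cultures, so p-values measure the spread between these libraries, which may be technical.

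Nrf2 is a transcription factor that Keap1, an adaptor of the Cul3 ubiquitin ligase, holds in the cytoplasm and marks for degradation. When electrophiles or oxidants modify Keap1, Nrf2 accumulates, pairs with small Maf proteins and binds antioxidant response elements near genes of glutathione, thioredoxin, NADPH, quinone, heme and iron metabolism. Because Nrf2 is set mainly by protein stability, the level of its mRNA is not a reading of its activity. In adipocytes these enzymes share NADPH with fatty acid synthesis.

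Total counts ranged from 6945498 to 15159877 per library (median 11524210). A pair of libraries lay among the libraries of another group: on the first principal component of 9872 expressed genes, which held 71.7% of the variance, Control replicate 1 lay at 22.4, inside the ranges of oxLDL (12.5 to 35.7) and of the other IS libraries (19.1 to 30.9), and IS replicate 4 lay at -24.4, inside the range of the other Control libraries. On the same component oxLDL + pNaKtide replicate 4, the library of lowest depth, lay at -57.0 (others -28.1 to -12.8) and pNaKtide replicate 3 at 4.61 (others -30.9 to -13.2). Counts also followed the GC content of genes differently from library to library, and this trend moved with the groups. The fitted difference between GC-rich genes (at least 55%) and GC-poor genes (under 45%), relative to the mean of all libraries, had a median of 0.40 on the log2 scale in Control (-0.34 to 0.52), -0.51 in oxLDL (-0.63 to -0.20) and 0.26 in oxLDL + pNaKtide (0.16 to 1.01). Results are therefore given also with each library's GC content and length trend taken out, and without Control replicate 1 and IS replicate 4. All 8 adipocyte markers (Adipoq, Fabp4, Plin1 and others) were detected, and their summed CPM (counts scaled to the size of the library) ranged from 12510.2 to 15769 in Control, 11915 to 15931 in oxLDL and 14886 to 16923 in oxLDL + pNaKtide. The 7 preadipocyte markers summed to 303 to 551 CPM over all groups, the 6 macrophage markers to 4.27 to 8.47 CPM with Ptprc and Itgam at 0 counts, and the 4 endothelial markers to at most 0.613 CPM. In edgeR at an adjusted p of 0.1, 2 of the 8 adipocyte and 1 of the 7 preadipocyte markers fell with oxLDL and 1 preadipocyte marker rose, beside 18.0% and 18.1% of all genes, and 0 of these 4 calls held with the trend out. With IS 3 adipocyte markers and 1 preadipocyte marker fell, beside 7.94% of all genes called, and all 4 held. With pNaKtide added to oxLDL 5 adipocyte markers rose, and 2 preadipocyte markers rose and 2 fell, beside 22.1% and 26.1%, and 4 of 5 and 4 of 4 calls held. Compared with Control, oxLDL + pNaKtide had 2 of the 8 adipocyte markers higher, beside 2.04% of all genes, and both calls held, while 0 preadipocyte markers passed. With pNaKtide alone against Control, with pNaKtide added to IS, and with IS + pNaKtide against Control, 0 markers of either list passed. Their part in the results was not tested.

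**Figure D1:**
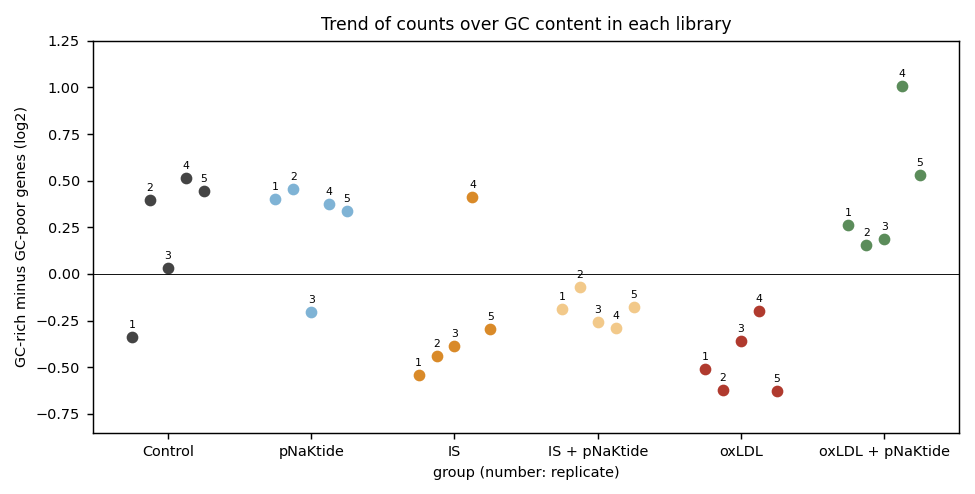
Each point is 1 library, placed by group on the x axis and numbered by replicate. The y axis gives the fitted log2 difference between GC-rich and GC-poor genes relative to the mean of all libraries. The 5 oxLDL libraries lie between -0.63 and -0.20 and the 5 oxLDL + pNaKtide libraries between 0.16 and 1.01. Control replicate 1, IS replicate 4, pNaKtide replicate 3 and oxLDL + pNaKtide replicate 4 lie away from the rest of their groups.

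Compared per length, the ferritin subunits were the most abundant members in Control, with deposited FPKM of 2987 ± 429 (SD, n = 5) for Fth1 and 1539 ± 288 for Ftl1. Gstp1 followed at 408 ± 98.7 FPKM, then Mgst1 at 298 ± 43.4 and Gpx4 at 284 ± 61.2, and the Control libraries of these 3 neighbours overlapped. Next came the pentose phosphate enzymes Taldo1 (232 ± 42.2 FPKM) and G6pdx (171 ± 28.0 FPKM), the peroxiredoxin Prdx1 (183 ± 17.0 FPKM) and catalase, Cat (169 ± 13.8 FPKM). Each member from Gstp1 down to Prdx3 overlapped the next, while Txn1, at rank 12, did not overlap Hmox1 below it. The lowest members after Gpx3 were the modifier subunit of glutathione synthesis Gclm at 3.58 ± 0.386 FPKM, the cystine carrier Slc7a11 at 3.65 ± 0.626, the catalytic subunit Gclc at 5.34 ± 0.583 and the thioredoxin reductase Txnrd1 at 8.91 ± 1.12. Nfe2l2 lay at 26.9 ± 2.33 FPKM and Keap1 at 12.7 ± 0.736. Of the 35 neighbouring pairs in this order, 27 had overlapping Control libraries.

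**Figure D2:**
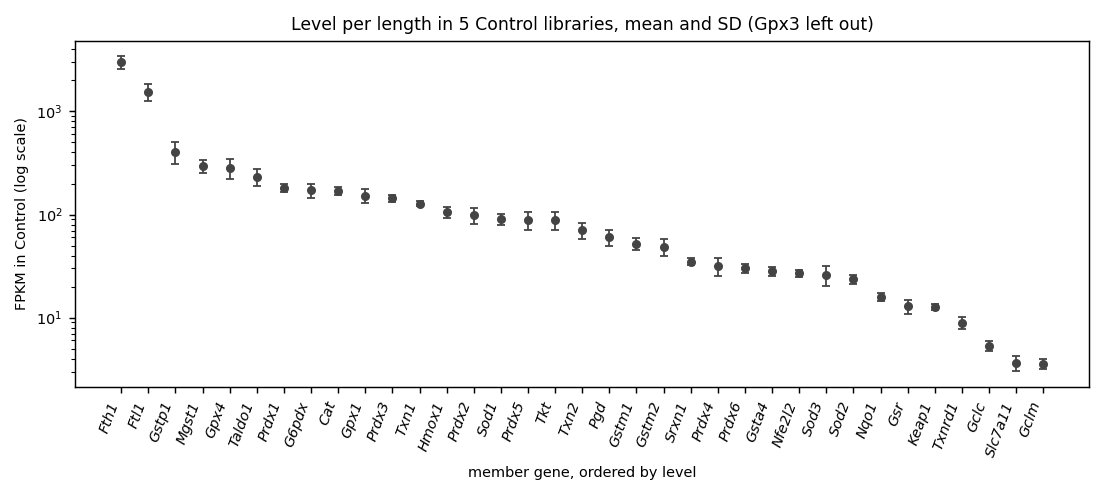
The points are means over the 5 Control libraries and the bars are SD. The y axis is FPKM on a log scale, and the members are ordered by level along the x axis, with Gpx3 left out. Fth1 and Ftl1 stand above the rest, and Gclm, Slc7a11 and Gclc lie lowest.

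The antioxidant response element has the core letters TGACNNNGC, where N is any base. These letters were searched on both strands of the RefSeq promoter windows of mouse build GRCm38.p6, which run from 250 bases before to 50 bases after each annotated start. A window was found for 30 of the 36 members, and none was found for Gclc, Gsr, Hmox1, Prdx6, Sod3 and Gsta4. The letters occurred in 9 of these 30 members (30%), beside 13.99% of 27025 genes with a window and 12.4% of all 32851 windows. In Srxn1 and Pgd the match began after the start, and in the other 7 members before it. The matches upstream of a start are printed here with up to 30 bases on each side, read along the gene's own strand and with the 9 matched letters in capitals, because they show which members carry the core in the searched window. A match is a description of letters and not a tested binding site.

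Nfe2l2, chr2:75704865-75704913, minus strand: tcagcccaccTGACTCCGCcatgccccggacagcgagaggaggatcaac

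Gclm, chr3:122245393-122245461, plus strand: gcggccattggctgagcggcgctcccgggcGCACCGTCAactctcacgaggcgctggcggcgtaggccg

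Txnrd1, chr10:82859084-82859152, plus strand: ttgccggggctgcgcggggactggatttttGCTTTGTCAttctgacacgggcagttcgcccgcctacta

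Prdx1, chr4:116685436-116685504, plus strand: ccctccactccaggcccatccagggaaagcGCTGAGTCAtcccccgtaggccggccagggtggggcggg

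G6pdx, chrX:74428899-74428967, minus strand: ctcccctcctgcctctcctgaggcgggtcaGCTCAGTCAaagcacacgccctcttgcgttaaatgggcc

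Mgst1, chr6:138140441-138140509, plus strand: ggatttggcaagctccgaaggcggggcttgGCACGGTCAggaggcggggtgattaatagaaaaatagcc

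Sod1, chr16:90220676-90220744, plus strand: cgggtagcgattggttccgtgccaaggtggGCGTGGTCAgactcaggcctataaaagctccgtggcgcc

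Among these 7, the core lay on the gene's own strand in Nfe2l2 alone, 240 bases before the start. On the opposite strand it began 134 bases before the start in Gclm, 133 in Prdx1, 92 in Txnrd1, 57 in G6pdx and 56 in both Mgst1 and Sod1.

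The first comparison asked how oxLDL shifted these genes in cultures without the peptide. In oxLDL, 20 of the 36 members were lower than in Control and 2 were higher at a Benjamini-Hochberg adjusted p of 0.1 in edgeR's quasi-likelihood test. Over all genes tested, 18.0% were lower and 18.1% higher. The median log2 change was -0.29 over the members and 0.045 over all genes. Lower genes included all 4 pentose phosphate enzymes, 3 of 5 glutathione S-transferases, 2 of 3 glutathione peroxidases, 4 of 6 peroxiredoxins and both ferritin subunits. The 14 members that did not pass included Nfe2l2, Nqo1, Hmox1, Gclc, Gclm, Gsr, Txnrd1 and Srxn1. In bulk RNA, fewer cells of a type and less RNA per cell cannot be told apart.

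The groups overlapped for nearly every member: Keap1 alone had all oxLDL libraries below all Control libraries, 1 of 36 members beside 8.35% of all genes. Without Control replicate 1 and IS replicate 4, 24 members were lower and 6 higher, beside 22.5% and 25.1% of all genes. With the trends of GC content and length removed, 15 members were lower and 1 higher, beside 11.3% and 8.53%, and 14 of the 22 calls held in the same direction. Keap1, Taldo1, Gstp1, Gpx1, Gpx4, Prdx5, Sod2 and Ftl1 lost their call there, and Gclm and Mgst1 passed as lower. The 20 lower members had a median GC content of 53.1% and the 14 that did not pass one of 47.4%. Scaled by library size alone, which moved the median of all genes to 0.17, 17 members were lower and 9 higher, beside 11.3% and 24.6%, and no called member changed sign.

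The second comparison asked what pNaKtide changed in cultures given oxLDL. In oxLDL + pNaKtide, 22 of the 36 members were higher than in oxLDL and 5 were lower. The share over all genes was 22.1% higher and 26.1% lower. The median log2 change was 0.46 over the members and -0.086 over all genes. All 4 pentose phosphate enzymes, 4 of 5 glutathione S-transferases, 4 of 6 peroxiredoxins, 2 of 3 glutathione peroxidases and both ferritin subunits rose. The 5 that fell were Nfe2l2, Nqo1, Gclc, Gsr and Txnrd1.

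The libraries of both groups did not overlap for 24 of the 36 members (20 above, 4 below), beside 28.4% of all genes. All 27 calls held when any single library of either group was left out, and 20 of them held under every alternative tried. With the trends of GC content and length removed, 22 were again higher and 5 lower, beside 18.9% and 18.0% of all genes, but 5 of the 27 were other genes. Nfe2l2, Taldo1, Gpx1, Gpx4 and Prdx5 lost their call, Gclm, Mgst1, Prdx1 and Sod2 passed as higher, and Hmox1 as lower. The 22 higher members had a median GC content of 52.7%, the 5 lower ones 47.7% and the 9 others 45.5%. Scaled by library size alone, which moved the median of all genes to -0.30, 19 members were higher and 10 lower, beside 13.4% and 38.1%, and no called member changed sign. Without Control replicate 1 and IS replicate 4, neither of them in these groups, 23 were higher and 5 lower, beside 23.2% and 27.5%. The comparison shares its 5 oxLDL libraries, with the opposite sign, with that of oxLDL and Control. Opposite changes in both comparisons are therefore favoured in advance, and each comparison's values are only given side by side. Of the 9 members with the antioxidant response element letters, 3 fell and 6 did not pass with oxLDL (all genes 18.0% lower and 18.1% higher). With pNaKtide added, the same 3 (G6pdx, Pgd and Sod1) rose, Nfe2l2 and Txnrd1 fell and 4 did not pass (all genes 22.1% higher and 26.1% lower).

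**Figure D3:**
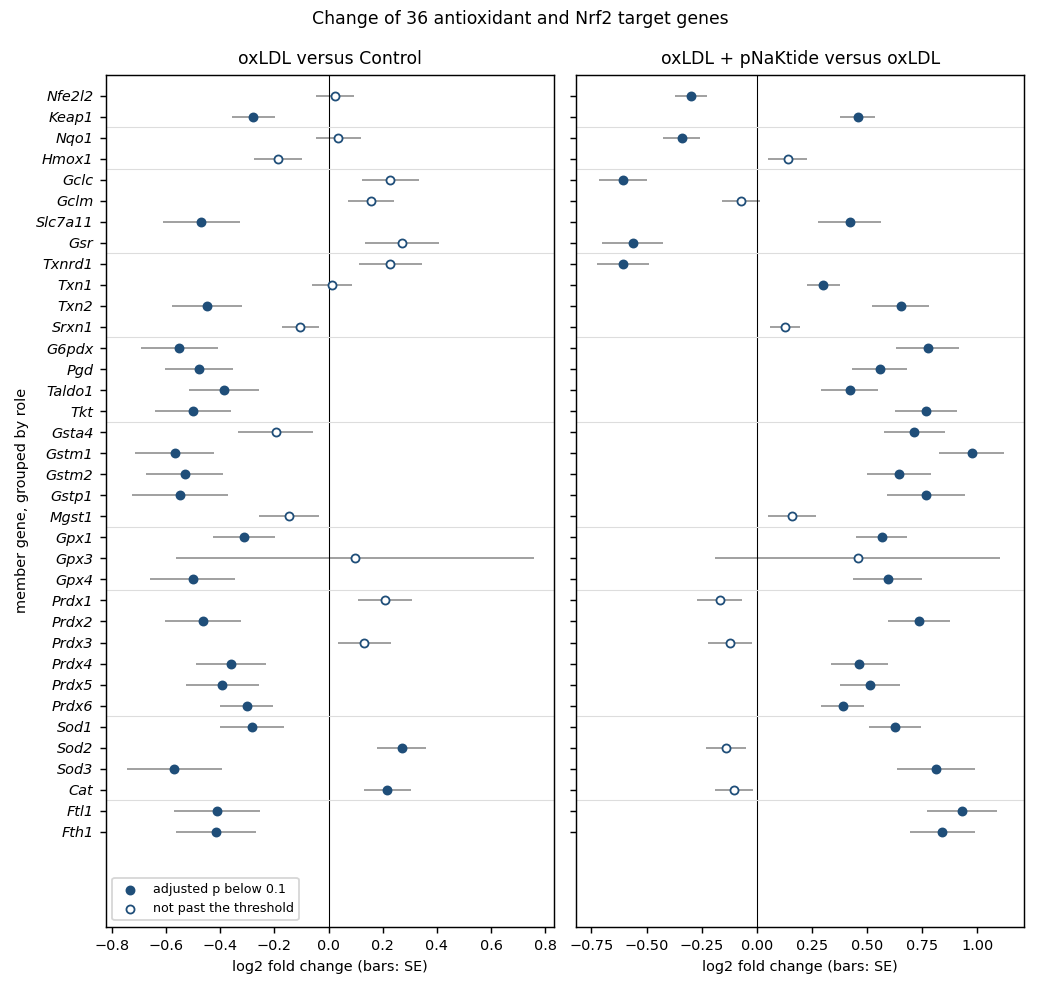
Each point is the log2 fold change of 1 member in edgeR, with its SE as a bar, for oxLDL versus Control on the left and oxLDL + pNaKtide versus oxLDL on the right. Filled points have an adjusted p below 0.1, and lines divide the roles. On the left 20 filled points lie below 0 and 2 above, and on the right 22 lie above 0 and 5 below.

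Nfe2l2 codes for Nrf2 and Keap1 for the adaptor that marks it for degradation. Nfe2l2 CPM were 88.9, 105, 114, 102 and 107 in Control, 104, 101, 108, 109.7 and 103 in oxLDL and 89.1, 87.4, 87.5, 79.0 and 84.2 in oxLDL + pNaKtide. These and the later CPM were scaled by trimmed mean of M-values (TMM) factors and are in replicate order. The oxLDL + pNaKtide libraries lay below every oxLDL library, while Control and oxLDL overlapped. The log2 change was 0.024 ± 0.071 (SE), adjusted p = 0.841, in oxLDL against Control, and -0.30 ± 0.071 (SE), adjusted p = 0.00115, in oxLDL + pNaKtide against oxLDL. With the trends of GC content and length removed, the second value for Nfe2l2 was -0.081, adjusted p = 0.375. Keap1 had the opposite sign to Nfe2l2 with pNaKtide added. Keap1 CPM were 55.4, 62.8, 57.6, 62.7 and 62.6 in Control, 52.2, 46.5, 51.3, 52.2 and 46.2 in oxLDL and 66.5, 69.6, 61.9, 70.5 and 72.6 in oxLDL + pNaKtide. The oxLDL libraries were below all Control and all oxLDL + pNaKtide libraries. Keap1 had a log2 change of -0.28 ± 0.080 (SE), adjusted p = 0.0143, with oxLDL and of 0.46 ± 0.081 (SE), adjusted p = 6.11e-05, with pNaKtide added to oxLDL, and with the trend out of -0.043, adjusted p = 0.665, and 0.22, adjusted p = 0.00312.

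Nqo1 reduces quinones and is among the most used readouts of Nrf2. Its CPM were 21.3, 25.7, 26.5, 24.5 and 27.6 in Control, 26.0, 23.3, 29.03, 26.0 and 24.6 in oxLDL and 19.6, 20.3, 19.5, 22.3 and 20.04 in oxLDL + pNaKtide. Every oxLDL + pNaKtide library was below every oxLDL library, and all but replicate 4 were also below the lowest Control library. The log2 change of Nqo1 was 0.035 ± 0.083 (SE), adjusted p = 0.793, with oxLDL and -0.34 ± 0.085 (SE), adjusted p = 0.00167, with pNaKtide added, and the second was -0.30, adjusted p = 0.00130, with the trend out. Hmox1, heme oxygenase, breaks heme down to biliverdin, iron and carbon monoxide. Hmox1 CPM were 149, 183, 198, 191 and 207 in Control, 155, 152, 160.1, 199 and 149 in oxLDL and 175, 164, 179, 200.1 and 181 in oxLDL + pNaKtide. The 3 groups overlapped, and oxLDL replicate 4 was far above the other oxLDL libraries. Neither change passed the test for Hmox1: -0.19 ± 0.088 (SE), adjusted p = 0.109, with oxLDL and 0.14 ± 0.088 (SE), adjusted p = 0.215, with pNaKtide added. The latter turned to -0.15, adjusted p = 0.0777, with the trend out.

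Gclc and Gclm are the catalytic and modifier subunits of glutamate-cysteine ligase, the rate-limiting enzyme of glutathione synthesis. Gclc CPM were 22.0, 18.4, 21.6, 17.4 and 22.3 in Control, 25.8, 22.7, 22.0, 24.0 and 24.6 in oxLDL and 17.6, 15.4, 14.9, 15.2 and 15.1 in oxLDL + pNaKtide. The 5 oxLDL + pNaKtide libraries were below all oxLDL libraries. Gclc had a log2 change of 0.23 ± 0.11 (SE), adjusted p = 0.106, with oxLDL and of -0.61 ± 0.11 (SE), adjusted p = 7.14e-05, with pNaKtide added (-0.45, adjusted p = 0.000309, with the trend out). Gclm CPM were 24.3, 19.4, 26.1, 22.2 and 22.1 in Control, 26.5, 26.3, 23.3, 24.1 and 26.6 in oxLDL and 25.6, 22.4, 24.1, 22.5 and 26.3 in oxLDL + pNaKtide. The Gclm libraries of the 3 groups overlapped. Gclm had a log2 change of 0.16 ± 0.084 (SE), adjusted p = 0.164, and -0.072 ± 0.085 (SE), adjusted p = 0.537, and both turned with the trend out, to -0.28, adjusted p = 0.0718, and 0.55, adjusted p = 0.000182. Gclm has a GC content of 42.1% over 6291 bases of exon.

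Gsr reduces oxidized glutathione with NADPH. Its CPM were 38.8, 31.0, 39.6, 28.1 and 41.9 in Control, 41.4, 42.8, 41.7, 47.1 and 43.4 in oxLDL and 27.1, 28.0, 41.5, 25.0 and 24.3 in oxLDL + pNaKtide. Replicate 3 of oxLDL + pNaKtide lay at the oxLDL level and the other 4 lay below all oxLDL libraries. Gsr had a log2 change of 0.27 ± 0.14 (SE), adjusted p = 0.139, with oxLDL and of -0.56 ± 0.14 (SE), adjusted p = 0.00153, with pNaKtide added (-0.60, adjusted p = 0.00174, with the trend out). Slc7a11, the cystine carrier of system xc-, supplies cysteine for glutathione. Slc7a11 CPM were 37.3, 53.3, 49.2, 59.3 and 58.2 in Control, 35.8, 34.9, 38.7, 45.8 and 30.6 in oxLDL and 49.2, 48.4, 43.5, 58.3 and 49.7 in oxLDL + pNaKtide. Control replicate 1 lay among the oxLDL libraries, and the oxLDL + pNaKtide libraries lay above the oxLDL libraries other than replicate 4. Slc7a11 had a log2 change of -0.47 ± 0.14 (SE), adjusted p = 0.0170, with oxLDL and of 0.42 ± 0.14 (SE), adjusted p = 0.0168, with pNaKtide added. With the trend out these were -1.11, adjusted p = 0.0357, and 1.27, adjusted p = 0.00554. The call with pNaKtide added was lost when libraries were scaled by size alone.

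In the thioredoxin system, Txnrd1, the cytosolic thioredoxin reductase and an Nrf2 target, fell with pNaKtide added to oxLDL while both thioredoxins rose. Its CPM were 75.3, 58.3, 67.6, 54.8 and 63.4 in Control, 78.8, 73.9, 71.3, 73.9 and 76.3 in oxLDL and 50.5, 50.2, 64.9, 36.8 and 42.0 in oxLDL + pNaKtide. Every oxLDL + pNaKtide library was below every oxLDL library, with a wide spread in the treated group. Txnrd1 had a log2 change of 0.23 ± 0.12 (SE), adjusted p = 0.143, with oxLDL and of -0.61 ± 0.12 (SE), adjusted p = 0.000153, with pNaKtide added (-0.46, adjusted p = 0.000987, with the trend out). The cytosolic thioredoxin Txn1 rose by 0.30 ± 0.074 (SE), adjusted p = 0.00148, and its mitochondrial counterpart Txn2 by 0.65 ± 0.13 (SE), adjusted p = 0.000185, with pNaKtide added. The oxLDL + pNaKtide libraries did not overlap those of oxLDL for Txn1 or Txn2, and the Txn1 call was lost when libraries were scaled by size alone. With oxLDL, Txn2 fell by 0.45 ± 0.13 (SE) on the log2 scale, adjusted p = 0.0137, and Txn1 had a log2 change of 0.013 ± 0.074 (SE), adjusted p = 0.922. Srxn1, which repairs overoxidized peroxiredoxins, did not pass the test in either comparison (-0.10 ± 0.067 (SE), adjusted p = 0.259, and 0.13 ± 0.068 (SE), adjusted p = 0.129).

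G6pdx and Pgd are the oxidative steps of the pentose phosphate pathway that make NADPH, and Taldo1 and Tkt are its carbon-shuffling enzymes. G6pdx CPM were 379, 574, 554, 589.9 and 574 in Control, 336, 332, 418, 394 and 344 in oxLDL and 639, 568, 426, 738 and 750.2 in oxLDL + pNaKtide. Control replicate 1 sat in the oxLDL range, the other Control libraries lay above it, and every oxLDL + pNaKtide library exceeded every oxLDL library. G6pdx had a log2 change of -0.55 ± 0.14 (SE), adjusted p = 0.00957, with oxLDL and of 0.78 ± 0.14 (SE), adjusted p = 8.94e-05, with pNaKtide added. Pgd CPM were 267, 419.9, 416, 441 and 422 in Control, 262, 254, 319, 308 and 266 in oxLDL and 398, 379, 354, 473 and 468 in oxLDL + pNaKtide. The pattern was as for G6pdx, with Control replicate 1 low and no overlap between oxLDL and oxLDL + pNaKtide. Pgd had a log2 change of -0.48 ± 0.13 (SE), adjusted p = 0.0100, and 0.56 ± 0.13 (SE), adjusted p = 0.000686. Tkt had a log2 change of -0.50 ± 0.14 (SE), adjusted p = 0.0124, and 0.77 ± 0.14 (SE), adjusted p = 8.54e-05, and Taldo1 by -0.39 ± 0.13 (SE), adjusted p = 0.0282, and 0.42 ± 0.13 (SE), adjusted p = 0.00917. Both Taldo1 calls were lost with the trend out (-0.17, adjusted p = 0.177, and 0.16, adjusted p = 0.140), whereas G6pdx, Pgd and Tkt kept theirs in both comparisons under every alternative tried.

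The glutathione S-transferases conjugate glutathione to electrophiles, and Gstm1 had the highest log2 change of all members when pNaKtide was added. Gstm1 CPM were 58.8, 81.9, 81.5, 85.4 and 82.5 in Control, 50.0, 43.9, 57.2, 65.1 and 47.0 in oxLDL and 97.8, 86.1, 86.1, 132 and 115 in oxLDL + pNaKtide. All oxLDL + pNaKtide libraries were above every oxLDL and every Control library, and the oxLDL libraries lay below the Control libraries other than replicate 1. Gstm1 had a log2 change of -0.57 ± 0.15 (SE), adjusted p = 0.00957, with oxLDL and of 0.97 ± 0.15 (SE), adjusted p = 1.78e-05, with pNaKtide added, a 1.96-fold rise. With the trend out the latter was 0.62, adjusted p = 2.19e-06. Gstm2 CPM were 58.2, 94.3, 83.6, 94.6 and 83.8 in Control, 58.1, 51.9, 63.5, 67.7 and 45.7 in oxLDL and 84.0, 74.8, 73.5, 121 and 96.6 in oxLDL + pNaKtide. The oxLDL + pNaKtide libraries were above all oxLDL libraries, with replicate 4 highest. Gstm2 had a log2 change of -0.53 ± 0.14 (SE), adjusted p = 0.0111, and 0.65 ± 0.14 (SE), adjusted p = 0.000620. Gstp1 had a log2 change of -0.55 ± 0.18 (SE), adjusted p = 0.0230, and 0.77 ± 0.18 (SE), adjusted p = 0.000868. Gsta4, which detoxifies the lipid peroxidation product hydroxynonenal, had a log2 change of -0.20 ± 0.14 (SE), adjusted p = 0.307, and 0.71 ± 0.14 (SE), adjusted p = 0.000149. The microsomal Mgst1 did not pass in either (-0.15 ± 0.11 (SE), adjusted p = 0.339, and 0.16 ± 0.11 (SE), adjusted p = 0.261). Gstm1 and Gstm2 lie in a cluster of closely related genes on chromosome 3, and a processed pseudogene of Gstm2 held 3149 counts, so their split of reads is uncertain.

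Glutathione peroxidases, peroxiredoxins and dismutases dispose of peroxides and superoxide. Gpx1 had a log2 change of -0.31 ± 0.11 (SE), adjusted p = 0.0402, with oxLDL and of 0.57 ± 0.11 (SE), adjusted p = 0.000231, with pNaKtide added, and Gpx4, the guard against lipid peroxidation, by -0.50 ± 0.16 (SE), adjusted p = 0.0198, and 0.59 ± 0.16 (SE), adjusted p = 0.00266. All 4 values lost their call with the trend out: 0.029, adjusted p = 0.807, and 0.11, adjusted p = 0.204 for Gpx1, and -0.15, adjusted p = 0.271, and 0.12, adjusted p = 0.322 for Gpx4. A transcribed pseudogene of Gpx4 held 130611 counts beside 148257 of Gpx4 itself, so reads of the pair may have been shared. Among the peroxiredoxins, Prdx2, Prdx4, Prdx5 and Prdx6 were lower with oxLDL (-0.30 to -0.46) and higher with pNaKtide added (0.39 to 0.74), with Prdx2 moving furthest at 0.74 ± 0.14 (SE), adjusted p = 0.000138. The Prdx5 calls were lost with the trend out (-0.10, adjusted p = 0.399, and 0.16, adjusted p = 0.128). Prdx1 and the mitochondrial Prdx3 did not pass in either comparison, and with pNaKtide added Prdx1 turned from -0.17 ± 0.10 (SE), adjusted p = 0.185, to 0.31, adjusted p = 0.000717, with the trend out.

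The cytosolic dismutase Sod1 had a log2 change of -0.28 ± 0.12 (SE), adjusted p = 0.0692, with oxLDL and of 0.63 ± 0.12 (SE), adjusted p = 0.000115, with pNaKtide added, and the secreted Sod3 by -0.57 ± 0.18 (SE), adjusted p = 0.0194, and 0.81 ± 0.18 (SE), adjusted p = 0.000522. Sod2, the mitochondrial dismutase, and Cat, the peroxisomal catalase, were the 2 members that passed the test as higher in oxLDL than in Control. Sod2 CPM were 102, 82.3, 97.99, 82.4 and 93.4 in Control, 106, 123, 102, 107 and 116 in oxLDL and 99.6, 93.0, 119, 96.8 and 92.6 in oxLDL + pNaKtide. The oxLDL libraries were mostly the higher ones, with overlap among all 3 groups. Sod2 had a log2 change of 0.27 ± 0.090 (SE), adjusted p = 0.0267, and -0.14 ± 0.090 (SE), adjusted p = 0.219, and both turned with the trend out, to -0.21, adjusted p = 0.256, and 0.55, adjusted p = 0.000734. Its exons hold 42.2% GC over 10008 bases. Cat CPM were 493, 415, 473, 407 and 452 in Control, 464, 564, 527, 479 and 569.9 in oxLDL and 521, 493, 514, 399 and 495 in oxLDL + pNaKtide. Control and oxLDL overlapped, and oxLDL + pNaKtide replicate 4 was the lowest library of the 3 groups. Cat had a log2 change of 0.22 ± 0.087 (SE), adjusted p = 0.0608, and -0.10 ± 0.087 (SE), adjusted p = 0.364, and with the trend out of 0.21, adjusted p = 0.0707, and -0.070, adjusted p = 0.561. The call of Cat with oxLDL was lost with genes of at least 1 count included, with both groups fitted alone and at an adjusted p of 0.05.

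The ferritin subunits, light chain Ftl1 and heavy chain Fth1, store iron, are controlled by iron in translation and are known Nrf2 targets. Ftl1 CPM were 1463, 2296, 1992, 2479 and 2207 in Control, 1426, 1339, 1800.3, 1819 and 1462 in oxLDL and 2786, 2495, 2501, 3899 and 3273 in oxLDL + pNaKtide. Every oxLDL + pNaKtide library was above every oxLDL and every Control library. Ftl1 had a log2 change of -0.41 ± 0.16 (SE), adjusted p = 0.0509, with oxLDL and of 0.93 ± 0.16 (SE), adjusted p = 4.81e-05, with pNaKtide added, or -0.044, adjusted p = 0.754, and 0.42, adjusted p = 7.09e-05, with the trend out. Fth1 CPM were 2072, 2739.5, 2558, 3115 and 2604 in Control, 1786, 1648, 2414, 2255 and 1706 in oxLDL and 3495, 3263, 2764, 4494 and 3569.5 in oxLDL + pNaKtide. The oxLDL + pNaKtide libraries were above all oxLDL libraries and overlapped Control. Fth1 had a log2 change of -0.42 ± 0.15 (SE), adjusted p = 0.0363, and 0.84 ± 0.15 (SE), adjusted p = 6.34e-05, and gave similar values with the trend out (-0.38, adjusted p = 0.0640, and 0.86, adjusted p = 3e-05). Near copies of the ferritin light chain held 559730 (Ftl1-ps1), 252454 (Ftl2-ps) and 88592 (Ftl1-ps2) counts beside 696097 of Ftl1. Their log2 changes were -0.43 with oxLDL and 0.96 with pNaKtide added for Ftl1-ps1, -0.43 with oxLDL and 0.95 with pNaKtide added for Ftl2-ps and -0.55 with oxLDL and 1.04 with pNaKtide added for Ftl1-ps2, so these reads cannot be assigned to a gene with certainty.

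**Figure D4:**
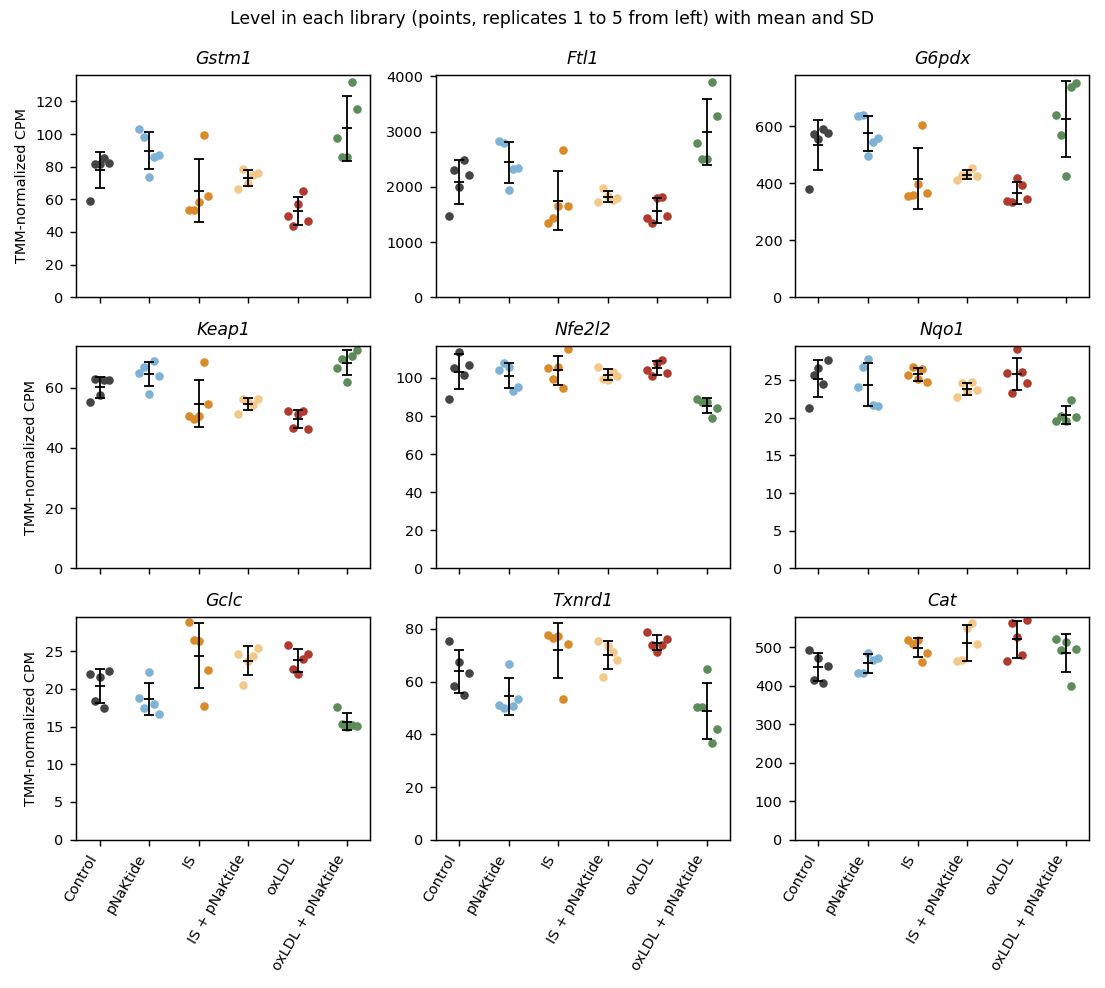
Each panel shows 1 gene, with the 6 groups on the x axis and TMM-normalized CPM from 0 on the y axis. Points are the 5 libraries of a group in replicate order, with the mean and SD as a bar. Gstm1, Ftl1, G6pdx and Keap1 are higher in oxLDL + pNaKtide than in oxLDL, Nfe2l2, Nqo1, Gclc and Txnrd1 are lower, and Cat overlaps. Control replicate 1 and IS replicate 4 stand away from their groups for Gstm1 and G6pdx.

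**Figure D5:**
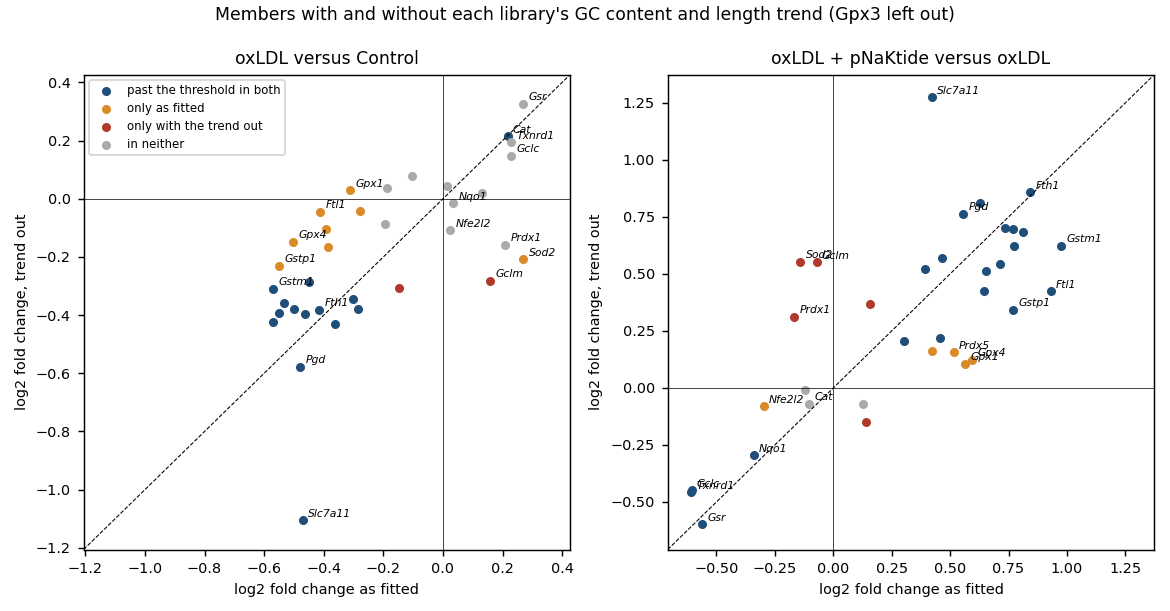
Each point is 1 member, with its log2 fold change as fitted on the x axis and the same with each library's GC content and length trend taken out on the y axis. Colours give in which fits the adjusted p was below 0.1, and the dashed line marks equal values. On the right, Gclm, Sod2 and Prdx1 cross from below 0 to above it, Gpx1, Gpx4 and Prdx5 fall toward 0, and Gclc, Gsr, Txnrd1 and Nqo1 stay below 0 in both.

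Among the 22 calls of oxLDL against Control, 10 held under every alternative and in every fit with 1 library left out: Slc7a11, Txn2, G6pdx, Pgd, Tkt, Gstm1, Gstm2, Prdx2, Prdx6 and Sod3. Leaving out 1 library ended the call of Gpx1 (Control 4 or 5, oxLDL 1 or 2), Prdx4 (Control 2, oxLDL 5), Sod1 and Ftl1 (Control 2, 4 or 5, oxLDL 1, 2 or 5), Cat (Control 2 or 4, oxLDL 2 or 5) and Fth1 (Control 4, oxLDL 2). The largest adjusted p reached in those fits was 0.114 for Gpx1, 0.137 for Prdx4, 0.168 for Sod1, 0.164 for Cat, 0.149 for Ftl1 and 0.119 for Fth1. Scaling by library size alone ended the calls of Gpx1, Prdx4 and Sod1, and an adjusted p of 0.05 those of Sod1, Cat and Ftl1.

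Whether the peptide acted differently with and without oxLDL was tested as the change with pNaKtide in oxLDL minus that in Control. The difference passed the test with a positive sign for 18 members and with a negative sign for 3, beside 12.8% and 11.8% of all genes. The median was 0.39 over the members and -0.047 over all genes. Gstm1 had the largest positive difference (0.77 ± 0.21 (SE), adjusted p = 0.0253), followed among those that passed by Sod3 (0.75 ± 0.25 (SE), adjusted p = 0.0443) and Ftl1 (0.70 ± 0.22 (SE), adjusted p = 0.0385), and the 3 negative ones were Gclc (-0.48 ± 0.15 (SE), adjusted p = 0.0381), Nqo1 (-0.30 ± 0.12 (SE), adjusted p = 0.0846) and Nfe2l2 (-0.27 ± 0.10 (SE), adjusted p = 0.0658). Txnrd1 (-0.38 ± 0.17 (SE), adjusted p = 0.112) and Gsr (-0.40 ± 0.20 (SE), adjusted p = 0.153) did not pass. With the trend out, 13 passed as positive and 1 as negative, beside 7.08% and 4.38%, and scaled by library size alone 10 passed as positive and 8 as negative, beside 6.35% and 19.8%. Without Control replicate 1 and IS replicate 4, 21 passed as positive and 5 as negative, beside 19.3% and 20.6%. The 21 calls over all libraries were sensitive to single libraries: 6 members passed without pNaKtide replicate 3, 9 without oxLDL + pNaKtide replicate 4, 10 without Control replicate 4 and 12 without Control replicate 2, oxLDL replicate 2 or oxLDL replicate 5. The share of all genes called in these fits is not given, so whether the fall was particular to the members was not tested. Txn2, G6pdx, Gstm1 and Gstm2 passed in all 20 fits with 1 library left out and under all 11 alternatives. Keap1 and Ftl1 also passed in those 20 fits, but both lost the call with the trend out, and Keap1 also when scaled by library size alone. The calls of Nqo1 and Nfe2l2 were lost with the trend out as well, and Nqo1 passed in 10 of the 20 fits and under 5 of the 11 alternatives.

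With pNaKtide alone, no member differed from Control, and 1 of all genes tested did (0.00497%). In edgeR 2 members had an unadjusted p under 0.05, with no share over all genes given for that criterion. The lowest adjusted p was 0.752, and DESeq2 and limma also called 0 members. The log2 changes ran from -0.23 for Txnrd1 to 0.32 for Gsta4, leaving out Gpx3. All 36 members had overlapping libraries in these groups, as did all but 188 of the 20139 genes tested. Compared with Control, oxLDL + pNaKtide had 3 higher members, Txn1 (0.31 ± 0.074 (SE), adjusted p = 0.0171), Gsta4 (0.52 ± 0.14 (SE), adjusted p = 0.0330) and Ftl1 (0.52 ± 0.16 (SE), adjusted p = 0.0664), beside 2.04% of all genes. The 4 lower members, beside 3.16% of all genes, were Nfe2l2 (-0.27 ± 0.071 (SE), adjusted p = 0.0294), Nqo1 (-0.31 ± 0.086 (SE), adjusted p = 0.0429), Gclc (-0.38 ± 0.11 (SE), adjusted p = 0.0516) and Txnrd1 (-0.38 ± 0.12 (SE), adjusted p = 0.0720). All 7 calls were lost with both groups fitted alone, and that of Txnrd1 also with the trend out. That of Txn1 held in every fit over 6 groups with 1 library left out. The number called was 2 without Control replicate 3 or without oxLDL + pNaKtide replicate 4, 3 without Control replicate 5, 4 without Control replicate 1 or oxLDL + pNaKtide replicate 5, and at most 10. No share over all genes is given for these fits, so the counts describe the members only. Without Control replicate 1 and IS replicate 4, 4 members were higher and 4 lower, beside 2.67% and 3.72%. Scaled by library size alone, 5 members were higher and 4 lower, beside 1.90% and 7.88%.

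In IS, no member passed the test against Control in edgeR, beside 7.94% of all genes. Unadjusted, 13 members had p under 0.05, DESeq2 called 6 and limma 1, and the lowest adjusted p was 0.100, for Tkt. The 7.94% is edgeR's share at an adjusted p of 0.1. No share over all genes is given for these other criteria, which may call more or fewer genes over the whole table. The median log2 change was -0.17 over the members and 0.025 over all genes. This count rested on 2 libraries: it was 20 without Control replicate 1 (19 lower and 1 higher, beside 15.1% and 18.1% of all genes) and 22 without IS replicate 4 (19 and 3, beside 17.3% and 17.2%). Without both it was 26, 21 lower and 5 higher, beside 21.6% and 23.8% of all genes. G6pdx CPM were 355, 357, 396, 604 and 366 in IS and 411, 430.0, 429.5, 454 and 424 in IS + pNaKtide. Ftl1 CPM were 1339, 1439, 1651, 2664 and 1652 in IS and 1733, 1980.2, 1837, 1766 and 1788 in IS + pNaKtide. IS replicate 4 was the highest IS library for both genes, by a wide margin, and the 4 others lay below every IS + pNaKtide library. Gclc CPM were 28.8, 26.5, 26.4, 17.8 and 22.6 in IS and 24.6, 20.5, 23.7, 24.3 and 25.4 in IS + pNaKtide. Txnrd1 CPM were 77.8, 76.5, 77.3, 53.5 and 74.4 in IS and 75.4, 61.6, 73.7, 71.1 and 68.4 in IS + pNaKtide. For Gclc and Txnrd1 the same library was the lowest of its group. Without both libraries, the log2 change with IS was -0.64, adjusted p = 9.06e-05 for G6pdx, -0.56, adjusted p = 0.000841 for Ftl1, 0.39, adjusted p = 0.00264 for Gclc, 0.33, adjusted p = 0.0176 for Txnrd1 and -0.62, adjusted p = 0.000105 for Slc7a11. As fitted with all libraries these were -0.36 ± 0.14 (SE), adjusted p = 0.122, -0.26 ± 0.16 (SE), adjusted p = 0.309, 0.27 ± 0.11 (SE), adjusted p = 0.127, 0.17 ± 0.12 (SE), adjusted p = 0.354, and -0.33 ± 0.14 (SE), adjusted p = 0.146. The 5 higher members without them were Gclc, Gsr, Txnrd1, Sod2 and Cat. The labels of both libraries were used as given.

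Adding pNaKtide to IS changed no member, nor any of the genes tested (0%) in edgeR. Unadjusted, 1 member, Gclm, had a p under 0.05, leaving out Gpx3, DESeq2 and limma called 0 members, and the count stayed at 0 without Control replicate 1 and IS replicate 4. Gclm (0.17 ± 0.083 (SE)) and Hmox1 (0.15 ± 0.088 (SE)) had all IS + pNaKtide libraries above all IS libraries and Nqo1 (-0.11 ± 0.082 (SE)) all below, 3 of 36 members beside 0.834% of all genes, each with an adjusted p of 1. Against Control, IS + pNaKtide likewise had 0 members called, beside 0.358% of all genes, with 13 at an unadjusted p under 0.05, 2 called by DESeq2 and 0 by limma. That share is edgeR's at an adjusted p of 0.1, and none is given for the other criteria. Without both libraries that count was 22, with 17 lower and 5 higher, beside 15.3% and 17.0% of all genes. Without Control replicate 1 it was 16, with 13 lower and 3 higher, beside 12.3% and 14.4% of all genes.

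A set of 5 further lists hold 101 genes around these members, 97 of them tested. With oxLDL 40 of the 97 were lower and 14 higher, beside 18.0% and 18.1% of all genes, and 27 of these 54 calls held with the trend out. With pNaKtide added to oxLDL 43 were higher and 23 lower, beside 22.1% and 26.1% of all genes, and 43 of 66 calls held. The same shares over all genes apply to each list. Among 14 partners and controllers of Nrf2, 4 rose and 2 fell with oxLDL, and 4 rose and 6 fell with pNaKtide added. With the trend out 4 and 6 of these calls held. Cul3, the scaffold of the Keap1 ligase, rose with oxLDL (0.75 ± 0.18 (SE), adjusted p = 0.00809), and Dpp3, a Keap1-binding peptidase, fell (-0.44 ± 0.11 (SE), adjusted p = 0.00982). With pNaKtide added, the Keap1-binding autophagy receptor Sqstm1 rose (0.50 ± 0.11 (SE), adjusted p = 0.000640) and Bach1, a repressor at antioxidant response elements, fell (-0.75 ± 0.18 (SE), adjusted p = 0.00105). Among 29 tested further Nrf2 targets, 11 fell and 1 rose with oxLDL and 13 rose and 3 fell with pNaKtide added, of which 8 and 10 calls held with the trend out. The biliverdin reductase Blvrb fell with oxLDL (-0.54 ± 0.15 (SE), adjusted p = 0.0117) while Ugdh rose (0.26 ± 0.10 (SE), adjusted p = 0.0506). The heme transporter Slc48a1 rose (0.57 ± 0.10 (SE), adjusted p = 8.7e-05) and Ugdh fell (-0.64 ± 0.10 (SE), adjusted p = 2.82e-05) with pNaKtide added. Both Ugdh calls were lost with the trend out (-0.13 and -0.085).

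Among 34 further genes of glutathione, thioredoxin and other antioxidant functions, 17 fell and 4 rose with oxLDL, and 19 rose and 7 fell with pNaKtide added. With the trend out 8 of the 21 and 16 of the 26 calls held. Oxr1, an oxidation resistance factor, rose with oxLDL (0.60 ± 0.14 (SE), adjusted p = 0.00797) and fell with pNaKtide added (-0.85 ± 0.14 (SE), adjusted p = 4.12e-05), while the methionine sulfoxide reductase Msrb1 fell with oxLDL (-0.44 ± 0.11 (SE), adjusted p = 0.00911) and the mitochondrial glutaredoxin Glrx5 rose with pNaKtide added (0.70 ± 0.10 (SE), adjusted p = 1.14e-05). Of 11 further NADPH genes, 6 fell and 2 rose with oxLDL and 4 rose and 3 fell with pNaKtide added, of which 5 of 8 and 7 of 7 calls held with the trend out. Pgls, the lactonase between G6pdx and Pgd, rose with pNaKtide added (1.12 ± 0.19 (SE), adjusted p = 5.1e-05), while the epimerase Rpe fell (-0.97 ± 0.15 (SE), adjusted p = 2.04e-05). The NAD kinases differed with oxLDL: Nadk, the cytosolic form, fell (-0.32 ± 0.083 (SE), adjusted p = 0.00965) and the mitochondrial Nadk2 rose (0.64 ± 0.15 (SE), adjusted p = 0.00783). Among 9 iron genes, 4 fell and 3 rose with oxLDL and 3 rose and 4 fell with pNaKtide added, but with the trend out 2 of the 7 and 4 of the 7 calls held. The iron exporter Slc40a1 rose (0.79 ± 0.18 (SE), adjusted p = 0.00783) and Hmox2 fell (-0.39 ± 0.11 (SE), adjusted p = 0.0117) with oxLDL. Hmox2 rose (0.48 ± 0.11 (SE), adjusted p = 0.000596) and the iron-sensing RNA-binding protein Ireb2 fell (-1.21 ± 0.24 (SE), adjusted p = 0.000234) with pNaKtide added. In IS, 12 of the 97 fell and 3 rose against Control, beside 7.94% of all genes called, and 6 of these 15 calls held with the trend out. Chac1, which degrades glutathione, fell (-0.70 ± 0.14 (SE), adjusted p = 0.0164), as did Aldh3a1 (-0.82 ± 0.24 (SE), adjusted p = 0.0694), Nadk (-0.30 ± 0.083 (SE), adjusted p = 0.0636) and Maff (-0.40 ± 0.13 (SE), adjusted p = 0.0817), and Oxr1 (0.50 ± 0.14 (SE), adjusted p = 0.0664) and Cul3 (0.51 ± 0.18 (SE), adjusted p = 0.0950) rose. Of these 6 genes, the Cul3 (0.083, adjusted p = 0.510) and Maff (-0.19, adjusted p = 0.403) calls were lost with the trend out.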

How the data were processed

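RNA was sequenced in 30 libraries (6 groups of 5). Per the study's methods and the submitters' processing notes, the authors trimmed reads with Trimmomatic 0.38, aligned them to mouse GRCm38 with HISAT2 2.1.0, counted reads per gene with GenomicAlignments and tested with DESeq2 1.20.0. The deposited raw counts carry no normalization, and the deposited FPKM values were scaled by the authors for length and depth. Counts of 20139 genes with more than 14 counts in all were fitted over the 6 groups with edgeR 4.0.16 in R 4.3.3 (TMM, robust quasi-likelihood test), with Benjamini-Hochberg adjustment over all genes and a threshold of 0.1. The normalized counts also deposited by the authors were not used. DESeq2 1.42.0, limma 3.58.1 on log2(FPKM + 1), other scalings and filters, a replicate block and left-out libraries were alternatives. GC content and length trends were fitted per library with mgcv 1.9.3 over 12567 genes and entered as offsets. On simulated counts of 19856 genes for oxLDL and Control, edgeR called 197 of 200 changed and 26 unchanged genes. The raised and lowered genes there had median log2 changes of 1.01 and -1.01, and libraries differed otherwise in depth alone. When a GC trend was put on the simulated oxLDL libraries (19668 genes), edgeR called 6420 unchanged genes without the offsets and 21 with them. The simulation therefore does not cover the main fit under such a trend. Of 60 replicate pairs, none had identical libraries, the lowest chi-square per degree of freedom being 1.30. The 36 members and the 5 other lists were chosen with earlier results of these data known. Values in every Control, oxLDL and oxLDL + pNaKtide library were given for Nfe2l2, Keap1, Nqo1, Hmox1, Gclc, Gclm, Txnrd1, Slc7a11 and the 4 members in each direction with the smallest adjusted p in oxLDL, IS or pNaKtide against Control and in oxLDL + pNaKtide against oxLDL. Those in every IS and IS + pNaKtide library were given for G6pdx, Ftl1, Gclc and Txnrd1 alone. Of each other list, at most the gene of smallest adjusted p in each direction was named.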

Additional observations from a re-analysis of the deposited data

Results flagged for a closer look

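A library far from the other 4 of its group was looked for among 102 groups of 5 libraries (17 members in 6 groups), by the gap to its nearest neighbour over the range, and 20 were found. Chance gives about 1 in 20 groups. Of the 20, 9 were IS replicate 4 and 3 were Control replicate 1. In TMM-normalized CPM, IS replicate 4 stood apart for Keap1 at 68.6 (others 49.6 to 54.5), Txnrd1 at 53.5 (others 74.4 to 77.8), Slc7a11 at 61.3 (others 33.8 to 38.9), G6pdx at 604 (others 355 to 396), Gstm1 at 99.7 (others 53.3 to 62.2), Pgd at 421 (others 276 to 310.2), Gstm2 at 99.1 (others 58.3 to 68.1), Ftl1 at 2664 (others 1339 to 1652) and Fth1 at 3163 (others 1707 to 2028). Control replicate 1 stood apart for G6pdx at 379 (others 554 to 589.9), Gstm1 at 58.8 (others 81.5 to 85.4) and Pgd at 267 (others 416 to 441). In oxLDL + pNaKtide, replicate 4 stood apart for Nqo1 at 22.3 (others 19.5 to 20.3) and Cat at 399 (others 493 to 521), replicate 3 for Sod2 at 119 (others 92.6 to 99.6) and Gsr at 41.5 (others 24.3 to 28.0) and replicate 1 for Gclc at 17.6 (others 14.9 to 15.4). The others were Hmox1 at 199 (others 149 to 160.1), in oxLDL replicate 4, Txnrd1 at 66.8 (others 50.0 to 53.4), in pNaKtide replicate 3 and Fth1 at 2596 (others 2209.9 to 2227), in IS + pNaKtide replicate 2.

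The change with pNaKtide differed between oxLDL and Control cultures for 21 members, by the interaction test in edgeR at an adjusted p of 0.1. Over all genes 12.8% passed with a positive and 11.8% with a negative difference. Of the 21 calls, 6 held in every fit with 1 library left out and 11 held with the trend out. On the log2 scale the change in oxLDL minus that in Control was 0.77 for Gstm1, 0.75 for Sod3, 0.70 for Ftl1, 0.67 for G6pdx, 0.64 for Gstp1 and 0.63 for Gstm2. It was 0.59 for Fth1, 0.59 for Txn2, 0.58 for Tkt, 0.58 for Gpx4, 0.57 for Prdx2 and 0.52 for Pgd. It was further 0.49 for Slc7a11, 0.49 for Prdx4, 0.46 for Prdx5, 0.43 for Gpx1, 0.36 for Keap1 and 0.33 for Prdx6. It was negative for Gclc (-0.48), Nqo1 (-0.30) and Nfe2l2 (-0.27).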

How the results depend on the processing

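With oxLDL against Control, and with pNaKtide added to oxLDL, the number of members called stayed within 1.5 times of 22 and 27 under each alternative tried, and with any 1 library left out it ranged from 17 to 27 and from 27 to 29. For IS against Control, where 0 members were called, the count was 6 in DESeq2, 3 scaled by library size only, 5 among genes over 14 counts in every library, 7 with the replicate block, 1 in limma, 1 with the trends of GC content and length removed and 26 without Control replicate 1 and IS replicate 4 together. With 1 library left out it ranged from 0 to 22. For oxLDL + pNaKtide against Control the count of 7 became 11 in DESeq2, in limma, with more than 14 counts required in every library and with the trend out, 0 with both groups fitted alone and 4 at an adjusted p of 0.05, and ranged from 2 to 10 with 1 library left out. For IS + pNaKtide against Control the count of 0 became 2 in DESeq2, 1 with the replicate block, 1 with both groups fitted alone and 22 without those 2 libraries, and ranged from 0 to 16. For the difference in the pNaKtide change the count of 21 became 10 at an adjusted p of 0.05 and ranged from 6 to 25. Shares over all genes are not set beside the counts in this paragraph, so a change in a count may be one over the whole table. No member was called for pNaKtide alone, or for pNaKtide added to IS, under any setting tried. Taking the trend out turned the sign with oxLDL for Gclm (-0.28), Gpx1 (0.029) and Sod2 (-0.21), with IS for Prdx1 (-0.22), with pNaKtide added to oxLDL for Hmox1 (-0.15), Gclm (0.55), Prdx1 (0.31) and Sod2 (0.55), and in the difference for Gclm (0.41) and Prdx1 (0.34). The cause was not tested. Samples share only a replicate number: of 75 same-numbered pairs between groups, 37 had deviations correlated above 0.1 (lowest -0.66, median 0.0996), and 10 of 30 libraries correlated best with their own number. With the replicate block the counts were 26 with oxLDL and 28 with pNaKtide added to oxLDL. Gpx3, with 0 to 5 counts per library, is too shallow for any statement.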
